A study of Capra hircus with 2 samples.

Results

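Among the miRNA names deposited for goat testicular cells, 10 were taken as doubtful by their reads, mismatches, hairpin placement and length. They are miR-1290, miR-716a, miR-716b, miR-940, miR-4791, miR-4286, miR-5109, miR-1260, miR-1260b and miR-339 and are called the doubtful names. They are 10 of 1329 names and, counted by hairpin arm, 16 of 1808 arm names. They were taken by name from both deposited lists, where they held 65 of 2599 entries in the CD49f-positive list and 64 of 2338 in the CD49f-negative list. The names were chosen by measured values of these same libraries (reads, mismatches, hairpin placement, length), so those values are given as a description without a test.

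The RNA was of Saanen dairy goats, from testicular cells released by enzymes from 3 testes of 3 animals 5 months old. Cells that had not attached after a night of plating, a step meant to take out Sertoli and myoid cells, were sorted on magnetic beads into CD49f-positive and CD49f-negative cells. CD49f, the integrin alpha-6 chain, is a surface protein by which spermatogonial stem cells are commonly enriched. Each group had 1 small RNA library, although the series text speaks of triplicates, and no genotype or treatment other than the sort set the groups apart. Whether a library pools cells of all 3 animals was not stated.

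A miRNA is cut from a hairpin precursor by Drosha and Dicer, which leaves many copies of a product of nearly fixed length with a fixed 5′ end, and bases 2 to 8 of that product, the seed, choose its targets. Small RNA libraries also hold pieces of ribosomal RNA, transfer RNA (tRNA), small nuclear RNA and small nucleolar RNA, and some names in the miRNA registry have been questioned because their sequence also lies in such an RNA. miR-1246 is a known case, since its sequence lies within U2 small nuclear RNA. The long stretches listed below under miR-716 and miR-5109 have the letters of 28S ribosomal RNA, the listed sequence of miR-940-5p has those of 18S ribosomal RNA, and miR-1260 ends like a leucine tRNA with its added CCA. These likenesses are background, and none is named for miR-339 or miR-4286. The reads were not matched to any ribosomal, transfer or nuclear RNA here, and their origin was not tested.

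The mature miRNAs that the deposited entries are named after are shown first, as the deposited lists give them, 5′ to 3′ with T for U and the seed in capitals. miR-1260 and miR-1260b share the seed TCCCACC, and miR-339 shares CCCTGTC with miR-339b. For miR-716a, miR-716b and miR-940 all deposited names end in -p5 or -p3 and do not name a registered mature miRNA, so no mature sequence is shown.
miR-1290 (human): tGGATTTTtggatcaggga
miR-1246 (cattle): aATGGATTtttggagcagg
miR-1260 (Chinese hamster): aTCCCACCgctgccacca
miR-1260b (cattle): aTCCCACCactgccacca
miR-4286 (cattle): aCCCCACTcctggtacc
miR-4791 (human): tGGATATGatgactgaaa
miR-5109 (mouse): tGTTGCGGaccaggggaatccga
miR-339 (pig): tCCCTGTCctccaggagctca

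The sequences actually listed for several names differed from those miRNAs. For miR-1290 and miR-1260b the listed and the registered sequence are set side by side with the differing base in capitals, and positions are counted from 1 at the 5′ end of the registered miRNA. The difference is T13G for miR-1290 and A9G for miR-1260b.
listed under miR-1290: tggatttttggaGcaggga
registered human miR-1290: tggatttttggaTcaggga
listed under miR-1260b: atcccaccGctgccacc
registered cattle miR-1260b: atcccaccActgccacca

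When overlapping listed sequences were joined, 3 groups of names each gave 1 continuous stretch. They are printed whole because they hold most copies of those names, which follows in part from joining these same sequences. Capitals mark bases at which at least 1 listed sequence that matches the stretch exactly differs from the hairpin it is named after. Differences of listed sequences that do not match the stretch exactly are not marked.
miR-716a and miR-716b, 39 bases: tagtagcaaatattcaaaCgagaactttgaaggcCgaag
miR-5109, 42 bases: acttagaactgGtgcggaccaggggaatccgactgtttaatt
miR-1290 and miR-1246, 24 bases: aaatggatttttggaGcagggagt

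The CD49f-positive list held 8196507 reads under miRNA names and the CD49f-negative list 3064462, so the positive library was 2.67 times deeper. With 1 library a group, differences could not be checked against replicates, and p-values are not given. The 95% intervals are exact binomial (Clopper-Pearson) intervals that cover counting error only. All 12 miRNA markers of 5 cell classes were listed in both libraries. The 3 markers of meiotic and later germ cells (miR-34b, miR-34c and miR-449a) summed to 22524 reads per 1000000 named reads (RPM) in the positive and 113686 in the negative library, and all 3 were lower in the positive one. The endothelial marker miR-126 was at 14349 and 7551, the 4 markers of muscle, myoid cells and fibroblasts at 226973 and 191135, the 3 of red blood cells at 2963 and 3716, and the Sertoli marker miR-202 at 320 and 823 RPM. Of the 4 muscle, myoid and fibroblast markers, miR-143 made up most of the sum, at 221480 and 184640 RPM. The others did not share its direction: miR-145 was at 4025 and 4788, miR-199a at 1331 and 1565 and miR-214 at 137 and 142 RPM. None of the 12 was at 0. A listed sequence held an unread base (N) in 1 of 2599 positive and 80 of 2338 negative entries. What part cell makeup or sequencing quality has in the ratios below was not tested.

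Together the doubtful names held 24022 reads, or 0.293% (95% interval 0.289 to 0.297) of named reads in the positive library, and 13375.5 reads, or 0.436% (0.429 to 0.444), in the negative library. Fractions of a read arise because the deposited values split a read among the hairpins it fits. The log2 ratio of these shares, positive over negative, was -0.57 (-0.61 to -0.54), which turned positive under TMM (0.25) and median-of-ratios scaling (0.26). miR-716b and miR-5109 had the most reads of the 10 names in both libraries.

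Levels by arm are given in RPM. miR-716b-3p was the most abundant, at 1821 in the positive and 2656 in the negative library, followed by miR-5109-3p at 396 and 546. miR-716a-3p stood at 223 and 339.05, miR-5109-5p at 227 and 277, and miR-1260-5p at 133 and 305. The other 11 arm names were at most 101 in either library, and miR-339-3p and miR-940-3p had under 20 reads in both libraries together.

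**Figure D1:**
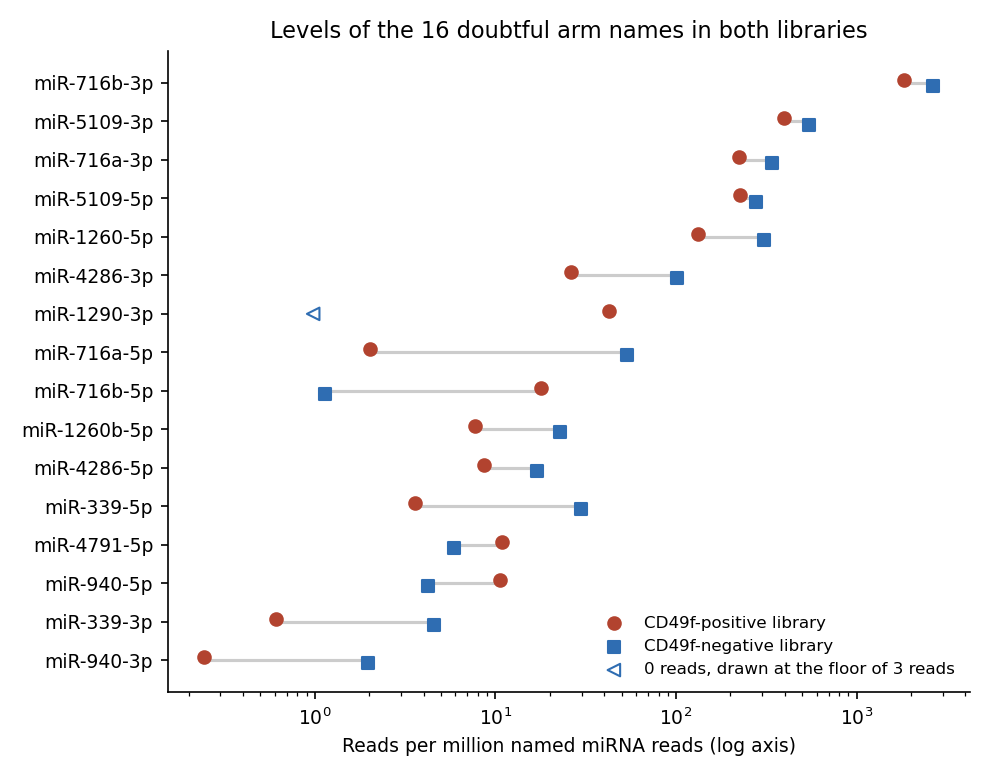
Levels of the 16 doubtful arm names, in RPM (reads per 1000000 named miRNA reads) on a log axis, with 1 point per library and the grey line joining both. The arms with most reads sit somewhat higher in the CD49f-negative library, miR-716a-5p and miR-716b-5p lie apart in opposite directions, and miR-1290-3p has 0 reads in the negative library, drawn at the floor of 3 reads.

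Of the 16 arm names, 14 had at least 100 reads summed over both libraries and could be called. A call asked for a 2-fold or larger ratio whose interval excludes 1. On this rule 3 were higher in the positive library (miR-1290-3p, miR-716b-5p, miR-940-5p) and 5 were lower (miR-1260-5p, miR-1260b-5p, miR-339-5p, miR-4286-3p, miR-716a-5p). Of all 298 arm names with 100 reads, 2.01% were higher, 24.8% lower and 26.8% either. Because the names were chosen with such ratios in view, nothing is read from that contrast. The median log2 ratio was -0.58 over the 14 and -0.43 over all 298. TMM and median-of-ratios scaling raised every log2 ratio by 0.82 and 0.83, which changed the split to 4 higher and 3 lower under both, and a total without the 10 most abundant names raised it by 0.31 and gave 4 and 4.

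The highest ratio among the doubtful names belonged to miR-1290. It had 349.5 reads in the positive list and 0 in the negative list, which is at least 43.6-fold higher when the negative library is set to the floor of 3 reads. Nearly all of it, 347.5 reads, came from 1 locus, chr19:42426134-42426392 on the plus strand. That locus was also listed in the CD49f-negative library, under the name miR-1246-3p, with 371.5 reads. Counted by locus, the log2 ratio was -1.52 (-1.73 to -1.30), which stayed below 0 but short of 2-fold under TMM (-0.70) and median-of-ratios scaling (-0.68). Its whole reads, before splitting, were 695 and 743 and gave -1.52 as well. Reads of these names fit several near-identical loci, whose ratios differed. On the same strand of chromosome 19, the loci starting at 42388845, 42399554 and 42411637, named miR-1246-3p in both lists, were at 0.59 (509.5 and 126 reads), 0.35 (396 and 116) and -0.27 (601.5 and 270.5). Loci of the same name in both lists on chromosomes 3 and 28 were at -1.31 (255 and 236.5 reads) and 0.15 (343.5 and 115.5). How a read was shared among these loci was not tested, so the value of 1 locus alone does not give the direction of the sequence.

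The 1 sequence printed for the locus differed between the lists. In the positive list it was the 19-base one printed above under miR-1290, with 151 copies. In the negative list it was atggatttttggagcagg, with 198 copies. The latter had 402 copies in the positive list, printed there at other loci, so a change of the commonest sequence at the locus is not shown. Both sequences lie in the 24-base stretch, as do 820 of 838 copies listed under miR-1290 or miR-1246 in the positive library and 492 of 517 in the negative library. The listed miR-1290 sequence had no mismatch to the goat locus and 1 to human miR-1290 (T13G). At that base it has the G of cattle miR-1246. For miR-1290 and miR-1246 together, 2565 and 1392 reads gave -0.54 (-0.63 to -0.44), which is under 2-fold, and for miR-1246 alone 2215.5 and 1392 reads gave -0.75 (-0.85 to -0.65); TMM scaling turned both to 0.28 and 0.07. Of the 19 positive and 17 negative entries named miR-1246, 9 and 10 lay within 50 kb of this locus on chromosome 19.

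The names miR-716a and miR-716b come from hairpins of the Tasmanian devil. Their 3p arms had 16749 reads in the positive and 9178.5 in the negative library together. Each arm was lower in the positive library without reaching 2-fold, at -0.61 (-0.72 to -0.50) for miR-716a-3p and -0.54 (-0.58 to -0.51) for miR-716b-3p, and both turned positive under TMM (0.21 and 0.28) and median-of-ratios scaling (0.23 and 0.29). Their 5p arms were called in opposite directions. miR-716a-5p had 16.5 reads in the positive and 163 in the negative library, at -4.69 (-5.61 to -4.03), a call that was lost with arms summed (-0.80) or known hairpins only (-1.64), whereas miR-716b-5p had 146.5 and 3.5, at 3.78 (2.38 to 5.67).

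Those opposite calls rested on 2 loci, each in 1 list only. For miR-716a-5p, 148 of the 163 negative reads were at chr26:45975215-45975471 on the minus strand, with the listed sequence acgagaactttgaaggcc (108 copies). For miR-716b-5p, 134.5 of the 146.5 positive reads were at chr10:29067230-29067485 on the minus strand, with agaactttgaaggccg (110 copies). Both sequences lie in the same 39-base stretch. An entry prints only 1 sequence of its locus, so a sequence or locus missing from a list is not shown to be absent from that library. The 5p arms pooled held 163 and 166.5 reads, at -1.45 (-1.77 to -1.13), or -0.63 under TMM scaling. With all arms of both names pooled there were 16912 and 9345, at -0.56 (-0.60 to -0.53), or 0.26 under TMM scaling.

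Listed sequences covered the stretch unevenly, and its first bases were held by 1 sequence alone, of 31 copies in the negative list. In the positive library 3531 of 3549 copies listed under miR-716a or miR-716b, and 2036 of 2051 in the negative library, matched a part of the 39 bases exactly, from 4 and 5 different start positions. By copies, 58.3% and 71.8% of these began at base 17. The commonest listed sequence, aacgagaactttgaaggccgaag, had 1848 and 1462 copies. It differs from the miR-716b hairpin by T3C, counted from its own 5′ end, and it made up 14.1% of the 13064 positive and 20.1% of the 7259 negative reads of the entry it stands for. No entry placed on the genome held the whole stretch.

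**Figure D2:**
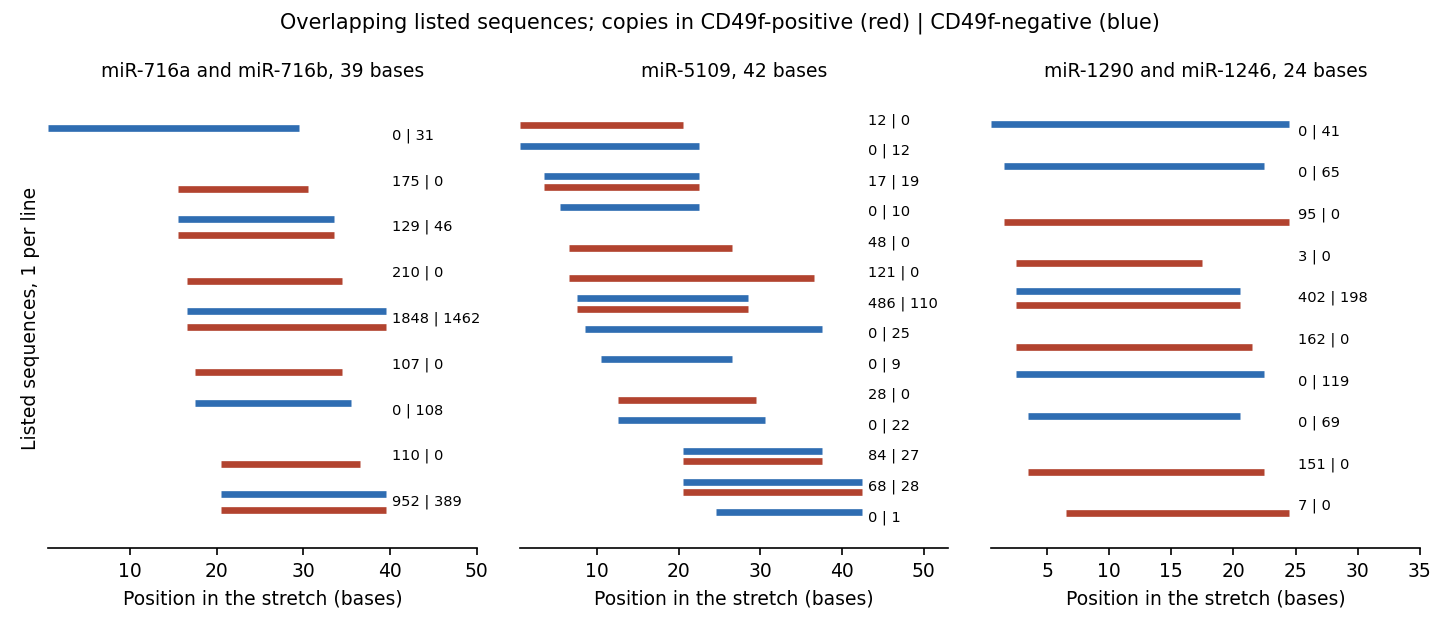
Listed sequences placed along 3 joined stretches, with position in bases from the 5′ end on the horizontal axis and 1 listed sequence per line. Red bars are sequences of the CD49f-positive list and blue bars those of the CD49f-negative list, and the numbers at the right are copies in each (positive, then negative). Several starts and ends are listed on each stretch, with 41.8% to 71.8% of copies at the commonest start, and the sequence with 1848 and 1462 copies is the commonest of miR-716.

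miR-5109 was likewise listed with overlapping sequences, along 42 bases. All 263 negative copies and 864 of 867 positive copies matched a part of it exactly, with 9 and 6 start positions and lengths from 16 to 30 bases, and 56.3% and 41.8% of these copies began at base 8. The commonest sequence, actggtgcggaccaggggaat, had 486 copies in the positive and 110 in the negative list. All 9 listed sequences that cover base 12 of the stretch differed there from the mouse hairpin by the same change, T12G in the numbering of the stretch.

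The arms of miR-5109 were near each other in ratio. miR-5109-3p had 3248.5 and 1673 reads, at -0.46 (-0.55 to -0.38), and miR-5109-5p had 1859.5 and 850 reads, at -0.29 (-0.41 to -0.17). Pooled, 5108 and 2523 reads gave -0.40 (-0.47 to -0.33), or 0.42 under TMM scaling. The direction of both arms turned under TMM (0.36 and 0.53) and median-of-ratios scaling (0.37 and 0.54), and that of the 5p arm also with a total without the 10 most abundant names (0.016). Its placed loci kept their name: 8 of 8 placed loci of the positive list carried miR-5109 in the negative list too. The largest was chrX:37979817-37980077 on the plus strand, with 1567.5 and 865.5 reads. The locus on chr3, chr3:90474578-90474839 on the minus strand, carried 714 reads as miR-5109-5p in the positive list and was also listed as miR-6240-3p.

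miR-1260 and miR-1260b differ from each other by 1 base in the registry. miR-1260-5p had 1090 and 935 reads, at -1.20 (-1.33 to -1.07), and miR-1260b-5p had 63 and 69.5, at -1.56 (-2.09 to -1.06). Both were called lower in the positive library, and both calls were lost under TMM (-0.38 and -0.74) and median-of-ratios scaling (-0.36 and -0.73), that of miR-1260-5p also with a total without the 10 most abundant names (-0.89). The sequence atcccaccgctgccacc, with 108 positive and 97 negative copies, was listed under both names. It has the G of miR-1260 at base 9, and 0 of 110 positive and 1 of 109 negative copies listed under miR-1260b were found in a miR-1260b hairpin.

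Loci passed between these names. The one at chr8:74849107-74849364 on the minus strand was miR-1260b-5p with 61.5 reads in the positive list and miR-1260-5p with 94.5 in the negative list. The one at chr17:10409829-10410087 on the minus strand was miR-1260-5p with 154.5 reads in the positive and miR-1260b-5p with 4 in the negative list. Pooled, the names had 1153 and 1004.5 reads, at -1.22 (-1.34 to -1.10), or -0.40 under TMM scaling. The commonest listed sequence, ccaccgctgccaCCA with its last 3 bases in capitals, was not placed on the genome and had 544 and 498 copies, at -1.29 (-1.47 to -1.11). The full-length one, atcccaccgctgccaCCA, had 299 and 175 copies, at -0.65 (-0.92 to -0.37). Further entries listed this sequence with further A or T bases after the CCA, such as atcccaccgctgccaccaa with 25 copies in the positive list.

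**Figure D3:**
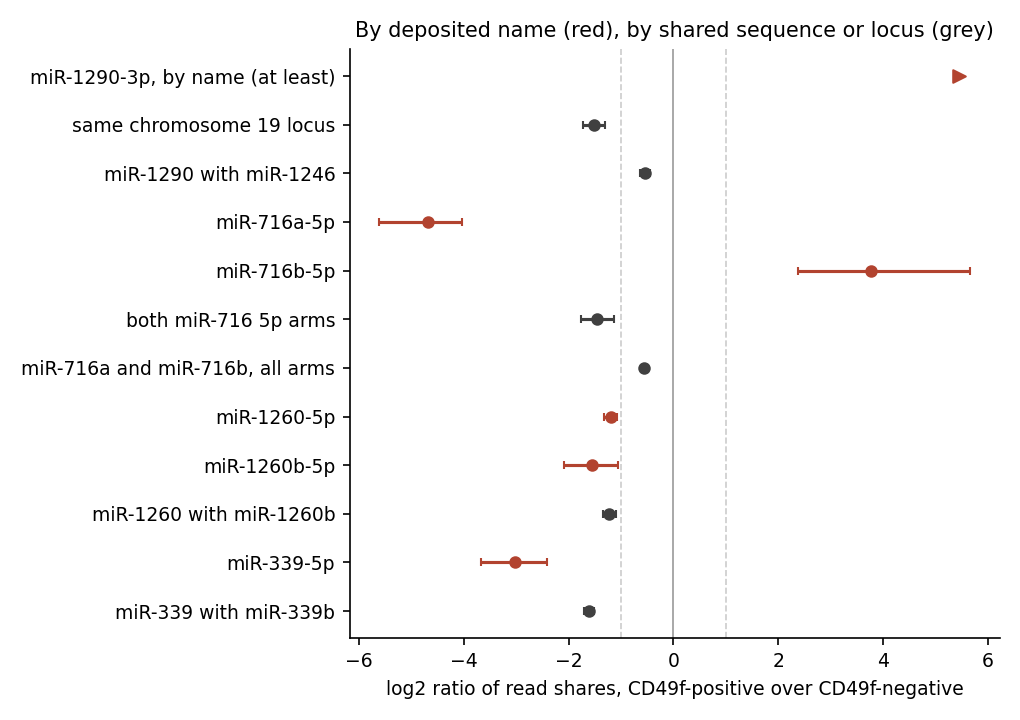
Log2 ratio of read shares, CD49f-positive over CD49f-negative, by deposited name (red) and after pooling by shared sequence or by locus (grey), with 95% counting intervals and dashed lines at 2-fold. The triangle for miR-1290-3p marks the lower bound against a floor of 3 reads. The opposite red points of the miR-716 5p arms give 1 pooled value of -1.45, and the chromosome 19 locus of miR-1290 lies at -1.52.

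miR-339 is a well-established miRNA, but few reads carried this name alone. The mature miRNA sequence was listed as tccctgtcctccaggagctcata, with 2 and 4 copies, and the same sequence was listed under miR-339b. Those miR-339 entries have no arm in their name and were counted with miR-339-3p by their deposited arm type, although the sequence has the registered miR-339 seed shown above. They held 1 and 5 of the 5 and 14 reads counted there. miR-339b-5p held 1868.5 and 2069 reads, a log2 ratio of -1.57 (-1.66 to -1.48). What was counted as miR-339-5p was another sequence, gccgctctccccgtcc (10 and 22 copies), which differs from the gorilla hairpin by T12C counted from its own 5′ end. It had 29.5 and 91 reads, at -3.03 (-3.67 to -2.41), and 0.5 reads without a mismatch in each library. The lower call was lost with mismatch-free reads (-1.49) and with this sequence alone (-2.52), where counts fell below the minimum for a call. Pooled with miR-339b the value was -1.61 (-1.70 to -1.52), or -0.79 under TMM scaling.

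miR-4286 was split between 2 unlike arms. Its commonest listed 5p sequence, accccactcctggtaCCA with the last 3 bases in capitals, is the registered miRNA with a further A at the 3′ end. It had 36 and 24 copies and lay at a known hairpin on the goat genome, chr19:39205653-39205728 on the minus strand. The arm had 71 and 52 reads at -0.97 (-1.51 to -0.43), just short of 2-fold, 95.9% of them at known hairpins. It was called lower with a prior of 5 reads (-1.004), with mismatch-free reads (-1.03), with known hairpins only (-1.09) and with arms summed (-1.75), which adds the unlike 3p arm. No call was made under TMM (-0.15) or median-of-ratios scaling (-0.14). The same held with a total without the 10 most abundant names (-0.67) and with the commonest listed sequence alone (-0.84). The 3p arm, gaaggcactggcaccccac (40 and 63 copies), was placed nowhere on the genome and differs from the cattle hairpin by A8C from its own 5′ end. It had 216 and 309 reads, at -1.93 (-2.19 to -1.68), and 23.4% of its reads were free of mismatches against 81.3% on the 5p arm.

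miR-4791 and miR-940 were listed mostly with sequences of 15 or 16 bases. miR-4791-5p had 89 and 18 reads, at 0.85 (0.14 to 1.71), below 2-fold as scaled here but called higher under TMM (1.68), median-of-ratios (1.69) and the total without the 10 most abundant names (1.16). Its listed sequences, tggatATGATGActg (38 and 11 copies) and tggatATGATGActga (31 copies, positive list only), hold ATGATGA, the letters of the box C of small nucleolar RNAs. On the listed strand, ATGATGA was found in 14 of 3183 listed sequences (0.440%), 3 of them among the 85 of the doubtful names. All 3 were listed under miR-4791 and lie within its registered sequence, so they do not describe the doubtful names as a group. The 16-base sequence was at chr2:118654989-118655254 on the minus strand, with 41 reads. miR-940-5p had 87 and 13 reads, at 1.28 (0.47 to 2.29), listed mostly as ccaggagtggAgcct (83 and 13 copies), which differs from the cattle hairpin by G11A from its own 5′ end, and no read was without a mismatch. With 100 reads summed over both libraries, miR-940-5p stood exactly at the minimum for a call. Its call was lost with a prior of 5 reads in place of 0.5 (0.93) and with its arms summed (0.78). The same held with the commonest listed sequence alone (1.21), whose copies fell short of that minimum. Its 3p arm had 2 and 6 reads.

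By mismatches the doubtful arm names fell into 2 sets. Over both libraries, the median share of reads without a mismatch was 22.0% over the 14, against 75.9% over 284 other arm names with 100 reads. Of the 14, 5 were above 70%: miR-1290-3p at 99.6%, miR-4791-5p at 87.9%, miR-4286-5p at 81.3%, miR-1260b-5p at 79.6% and miR-1260-5p at 73.2%. The other 9 were below 50%, from miR-716a-3p at 32.4% to miR-940-5p and miR-716a-5p at 0%, as were 50 of the 284 others. Mismatches are counted against the goat locus for a placed entry and against the registry hairpin for an unplaced one, so miR-1290-3p is free of mismatches to the goat genome although it is not the human miRNA.

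**Figure D4:**
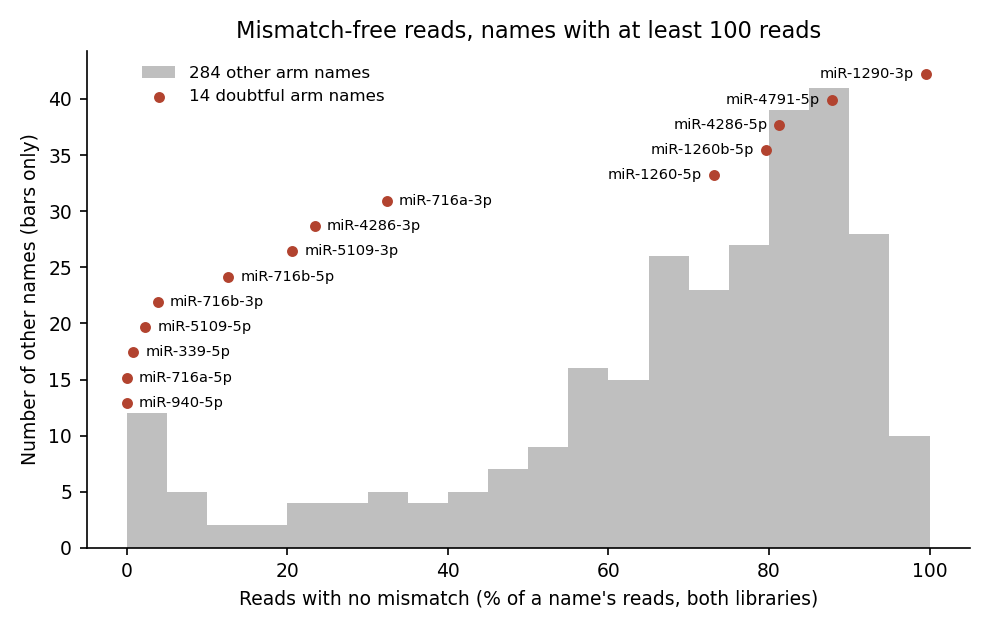
Share of reads without a mismatch, in percent of a name's reads over both libraries, for arm names with at least 100 reads. Bars count the 284 other names in steps of 5 points and belong to the vertical axis, whereas the 14 labelled points are placed at any height for legibility. The doubtful names lie at the low end with 9 below 50% or among the bulk of the others with 5 above 70%.

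Genome placement of the doubtful names is described here beside the rest of the lists. Hairpin placement was among the values they were chosen by, so a difference in it was built in. Only 5.68% of their positive and 6.68% of their negative reads were at known miRNA hairpins on the goat genome, against 99.3% and 98.8% for all other names. Reads in the deposited class for sequences and hairpins both not found on the genome made up 64.2% and 67.3%. Those in the class for placed reads whose registry hairpin is not found, and whose surrounding sequence may not form one per the column descriptions, made up 29.7% and 24.8%. In the positive list 1 entry of miR-716b-3p held 13064 of the 15431.5 doubtful reads in the unplaced class. Counted by entry in that list, the unplaced class held 13.8% of doubtful and 38.2% of other entries, and the placed class 72.3% and 16.5%. Known hairpins held 4.62% of doubtful and 30.1% of other entries there. By the deposited folding values, 69.2% and 75% of doubtful entries still had a hairpin of at least 50 bases with a folding energy of -15 kcal/mol or lower, against 88.6% and 87.7% of other entries. In 12 of 14 arm names under 50% of reads lay at known hairpins, and 57 of 284 others were alike in this. The exceptions were miR-4286-5p at 95.9% and miR-716a-3p at 73.8%, the latter at chr10:57421-57558 on the plus strand. Arms without a registered mature miRNA took 87.3% and 86.6% of doubtful reads, against 0.231% and 0.474% for other names. Counted by entry the gap was small, at 58.5% and 56.3% against 52.2% and 49.7%.

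Length, start and end of the listed sequences are described likewise, and length too was among the values of choice. By copies, 22.6% (positive) and 21.8% (negative) were 15 to 17 bases long and 42.9% and 50.02% were 20 to 24, the usual range of a miRNA, whereas 99.2% and 99.1% of the copies of other names were 20 to 24 bases. A first base T, common among miRNAs, was found in 4.69% and 2.76% of copies against 53.7% and 47.2%. The last 3 bases were CCA in 15.1% and 21.9% against 0.0618% and 0.0749%, and this letter pattern ended 10 of the 85 doubtful sequences and 67 of all 3183 (2.10%). All 10 were listed under miR-1260, miR-1260b or miR-4286, and the registered miR-1260 and miR-1260b shown above end in CCA themselves. In entries named after a registered mature miRNA, 51.5% and 37.3% of copies began at the registered 5′ end, against 98.5% and 98.6%. Counted by sequence, 70.8% and 65% began there, against 65.8% and 67.7%. Copies of other names come mostly from a few abundant miRNAs, and counted once each, 47.2% and 42.5% of their sequences were 15 to 17 bases long against 27.8% and 38% of the doubtful ones.

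**Figure D5:**
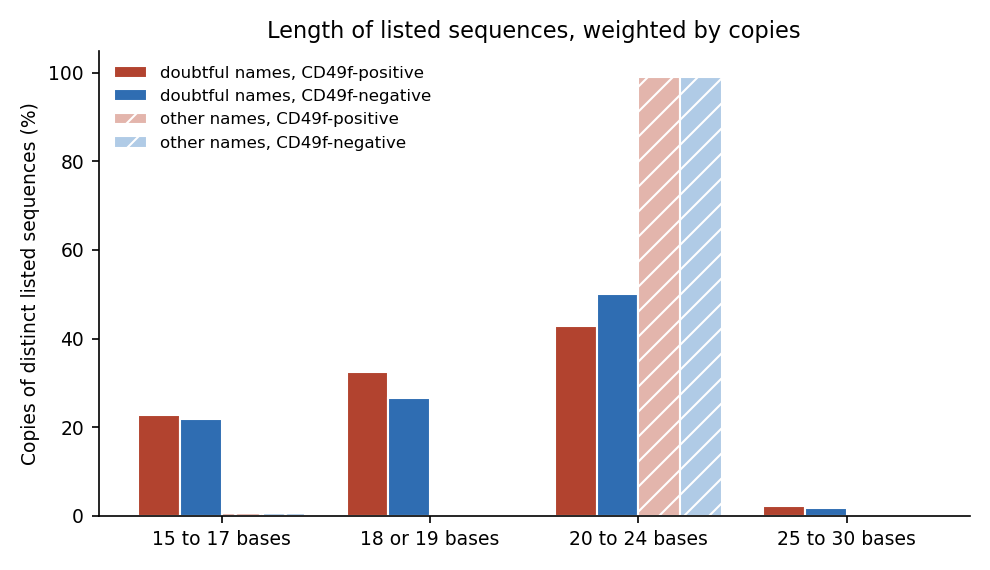
Percent of copies of distinct listed sequences by length class, for the doubtful names (solid) and all other names (hatched) in each library. Copies of the doubtful names spread over 15 to 24 bases, with 42.9% and 50.02% at 20 to 24 bases, whereas 99.2% and 99.1% of the copies of other names are in that class.

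The libraries shared few exact sequences but most copies. Of 54 positive and 50 negative distinct sequences of the doubtful names, 19 were identical in both (35.2% and 38%), and these held 81.6% and 91.9% of the copies. Other names shared 645 of 1964 and 1780 (32.8% and 36.2%), and these held 82.7% and 82.6% of their copies. Holding most copies in shared sequences was thus not particular to the doubtful names. A sequence of the other library that contained it or lay within it was found for 43 of 54 (79.6%) and 30 of 50 (60%), against 1000 of 1964 (50.9%) and 961 of 1780 (54.0%) of other names. By locus, 23 of 48 positive loci were listed under the same name in the negative list, 6 under another name and 19 not at all, and of 38 negative loci the numbers were 22, 6 and 10. Loci under another name were thus 12.5% and 15.8%, against 2.46% and 1.72% of the 854 and 812 placed loci of other names, and loci not listed 39.6% and 26.3% against 23.2% and 20.4%.

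Names with similar features lay outside the 10. The 3 other arm names with the lowest share of mismatch-free reads were miR-4531-3p (63 and 48 reads, 0%), miR-92-3p (988 and 501, 0%) and let-7j-5p (376 and 137, 0.195%), at log2 ratios of -1.03, -0.44 and 0.03. From a list of 18 further names that resemble tRNA, ribosomal, small nuclear or vault RNA, 8 were listed and 6 had at least 10 reads (miR-1246, miR-2478, miR-2904, miR-4454, miR-5100, miR-6087). Of their 6 arms with 100 reads, 0 were higher and 3 lower in the positive library, where 24.8% of all arm names with 100 reads were lower: miR-2904-5p at -1.36 (-1.65 to -1.07), miR-6087-3p at -1.76 (-2.10 to -1.44) and miR-6087-5p at -1.87 (-2.30 to -1.45). Under TMM scaling these were at -0.54, -0.94 and -1.05, which left 1 call. miR-1246-3p, miR-2478-3p and miR-4454-5p were at -0.74, -0.19 and -0.60, and turned positive under TMM scaling (0.08, 0.63 and 0.22). Their shares of mismatch-free reads were not low as a rule: miR-1246-3p had 95.6% and miR-2904-5p 92.8%, whereas miR-6087-3p had 8.81%.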

How the data were processed

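The deposited lists give, per entry, 1 sequence, its miRNA name and hairpin, and its genome place; the aligner, the registry release and the goat genome build were not stated in the labels or headers used here, so coordinates are as deposited and were set against no annotation. Reads per arm, with and without mismatches, are the authors' expected counts, in which a read is divided among the hairpins it fits. Copies of a sequence and whole reads of a locus are counts, per the file headers. Per the file headers, GC content of a hairpin is in percent. None of these values carries a recorded normalization.

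Reads were summed by name and arm without species prefix. A name without an arm was given 1 arm from both libraries together. Unnamed entries (45707 and 18827 reads) stayed out. Ratios add 0.5 reads to each count, and a count of 0 has a floor of 3 reads. Listed sequences overlapping by at least 10 bases, with at least 10 copies, were joined into stretches.

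The names, lists, size rule and named miRNAs were chosen with earlier results of these data known. Named are all 10 names and arms, names that share a listed sequence, the 3 others with the lowest mismatch-free share, and the listed members of a list of 18. Alternatives were TMM (edgeR 4.0.16) and median-of-ratios factors (DESeq2 1.42.0), from counts rounded to whole reads, in R 4.3.3, other totals, minimums, folds and priors, and narrower sets of reads. Pooling by shared sequence or locus was added after seeing the data. The rest was done in Python 3.11.15 with SciPy 1.17.1, pandas 2.3.3, numpy 2.4.6 and, for figures, matplotlib 3.10.9. The call rule was tested on simulated data, Poisson counts for the 1808 arm names: 17 of 17 names changed 3-fold and 0 of 268 unchanged ones were called, and 92.9% of intervals of unchanged names held the true value. The simulated counts had counting error as their only noise, with no split reads and no locus renamed between lists. They therefore cannot show how reliable the calls in these 2 libraries are.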

Additional observations from a re-analysis of the deposited data

How the results depend on the processing

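No paired analysis was possible because each group has 1 library, so leaving out a replicate was not possible either. Of 108 ratios of single arm names under alternatives, 69 kept direction and call, 13 lost a call, 8 gained one and 18 changed sign. Under TMM scaling miR-5109-3p, miR-5109-5p, miR-716a-3p and miR-716b-3p moved to log2 ratios of 0.36, 0.53, 0.21 and 0.28, and under median-of-ratios scaling to 0.37, 0.54, 0.23 and 0.29, by the scaling alone. A total without the 10 most abundant names put miR-5109-5p at 0.016. With mismatch-free reads only, miR-5109-5p was at 0.68 and miR-716b-3p at 0.93. With the commonest listed sequence alone both miR-5109 arms were at 0.72, and miR-716a-3p at 7.30, a fitted value against 0 copies, as that sequence is not listed in the negative library. Summed over arms, miR-716b-5p took the -0.53 of its name. Pooling by shared sequence, chosen after seeing the data, put miR-1290-3p at -0.54 and miR-716b-5p at -1.45, and counting by locus put miR-1290-3p at -1.52. Where no cause is named, the cause was not tested.

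The 3 higher and 5 lower calls became 3 lower under TMM and under median-of-ratios scaling, 0 higher and 2 lower with a minimum of 500 reads, 2 lower with a 4-fold rule, 1 higher with mismatch-free reads and 1 higher (miR-940-5p) with names pooled. The doubtful share of named reads was 0.0628% and 0.0868% with mismatch-free reads only. Counted once each, 4.62% and 4.69% of entries were at known hairpins. Counting contained sequences as shared raised the 19 shared sequences to 43 and 30. Depth limits miR-339-3p and miR-940-3p, with under 20 reads each, and the 13 negative reads of miR-940-5p.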
